A study of Drosophila melanogaster with 16 samples.

Results

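The mRNAs of 6 genes that are known in flies as targets of the RNA-binding protein FMR1 (FMRP) were followed: futsch, chic, Dscam1, Rac1, l(2)gl and Cbl. They were chosen by symbol, with earlier results of these data known. All 6 were among the 5003 genes of the bulk editing table, and they held 84 of its 32873 A-to-G positions. The cells expressed FMR1 fused to the ADAR catalytic domain (ADARcd), which turns adenosine into inosine, and sequencing reads inosine as guanosine. An mRNA that meets the fusion protein therefore collects A-to-G changes. The measure used throughout is the average editing frequency of a gene, the mean over its A-to-G positions of edited reads over all reads, given in percent.

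In S2 cells, a line from Drosophila embryos, a stably transfected clone carried the fusion under a copper-inducible promoter. The samples were 3 replicates in 0.5 mM arsenite for 4 h, 3 replicates kept in Schneider's medium for the same time, and 1 uninduced sample, and the arsenite and Schneider's samples were first induced with 1 mM copper for 4 h. The brain samples, again 3 in arsenite, 3 in Schneider's and 1 uninduced, were dissociated brains of larvae of the third instar, with 20 larvae pooled per sample, in which elav-GeneSwitch drove UAS-FMR1-ADARcd-V5-T2A-EGFP after RU486. This driver acts in neurons, while the RNA came from all dissociated cells, so a level of editing in brains also depends on how much of an mRNA lay in cells without the fusion, and fewer edited cells and less editing per cell cannot be told apart. Single S2 cells came from 2 plates with 96 wells per condition on each. They were induced for 4 h and then kept for 4 h in 0.5 mM arsenite, in Schneider's or in Krebs Ringer buffer. Reads at A-to-G positions numbered 247153 to 458176 per bulk sample, of which 993 to 1455 lay in the 6 mRNAs. Of the marker genes, elav and fne, which mark neurons, had 6523 and 4021 reads in the brain samples against 510 and 7 in the S2 samples, and the hemocyte genes Pxn and srp had 462 and 140 reads in the brain samples against 10170 and 2029 in the S2 samples. The glial marker repo had 145 reads in the brain samples against 1 in the S2 samples. Of the other markers, 3 did not follow the labels: the glial genes loco and moody had 801 and 73 reads in the brain samples against 3190 and 118 in the S2 samples, and the neuronal gene Syx1A had 1630 in the brain samples against 1741 in the S2 samples. Hml and NimC1, which mark hemocytes, had no position.

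FMR1 binds mRNAs and is best known as a repressor of their translation, above all in neurons, where its loss alters axons, dendrites and synapses. It is also a component of stress granules, the cytoplasmic RNA and protein assemblies that form when translation is blocked, for which arsenite is a common trigger. The 6 mRNAs encode proteins of the cytoskeleton, cell polarity and signalling. Futsch is the fly counterpart of the microtubule-associated protein MAP1B, and chic encodes profilin, which binds actin monomers. Rac1 is a small GTPase that acts on actin, and Dscam1 is a cell surface receptor by which neurites recognise their own branches. The l(2)gl gene encodes Lethal giant larvae, which sets the basal side of cells, and Cbl is a ubiquitin ligase that takes receptor tyrosine kinases out of signalling.

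The editable positions were unequally spread over the 6 mRNAs, with 36 in l(2)gl, 18 in Dscam1, 12 in futsch, 9 in Cbl, 5 in chic and 4 in Rac1. In BDGP6 coordinates, futsch (FBgn0259108) lies on the plus strand of X:1409069-1453686 and Cbl (FBgn0020224) on the plus strand of 3L:8424954-8432246. On the minus strand lie chic (FBgn0000308) at 2L:5972115-5981018, l(2)gl (FBgn0002121) at 2L:9839-21376, Rac1 (FBgn0010333) at 3L:1300879-1302683 and Dscam1 (FBgn0033159) at 2R:7317924-7381899. Of the 84 positions, 79 were coding, 3 lay in 5′ UTRs (1 each in Dscam1, l(2)gl and Cbl) and 2 in the 3′ UTR of Dscam1. The base before the edited adenosine was a G at 2 of the 84 positions (2.38%), against 4.93% of all 32873, and the base after it was a G at 49 (58.3%), against 50.1% of all. Low G before and high G after the adenosine are known preferences of ADAR enzymes.

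Without induction the 6 mRNAs were hardly edited, with futsch in brains as the exception. In the uninduced S2 sample chic, Dscam1, Rac1 and Cbl had no edited read in 323, 165, 100 and 41 reads, which allows shares of up to 0.929%, 1.82%, 3% and 7.32%. There l(2)gl had 6 edited of 571 reads, 3 of them at a single position (2L:15453) with 12 reads. In the uninduced brain sample chic, Dscam1, Rac1 and Cbl had no edited read in 439, 145, 71 and 198 reads, which allows up to 0.683%, 2.07%, 4.23% and 1.52%. In the same sample l(2)gl had 1 edited of 336 reads, while futsch had 4 of 96 and an average editing frequency of 3.89%. These limits, and the intervals on reads given here, cover counting error only. The uninduced samples had no replicates, so no test was made.

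In S2 cells all 5 mRNAs that could be measured had higher mean editing in arsenite than in Schneider's, by 3.18 to 11.7 percentage points, though Rac1 and l(2)gl were lower when each sample was divided by its mean over all genes, and 1 of the 5, Dscam1, passed the test. The test was limma on the frequencies of the 6 induced samples, with a gene called at an unadjusted p under 0.01, and adjusted p (Benjamini-Hochberg over all tested genes) are given beside. Arsenite raised editing very broadly in these cells: 1083 of 4589 tested genes were called higher (23.6%) and 4 lower (0.0872%), so 1 in 5 members is near that background. The median difference was 6.77 points over the 5 members and 10.8 points over all tested genes. At an unadjusted p under 0.05 there were 2 members, against 45.1% of all tested genes, and a quasi-binomial model of the reads called 4, against 30.8% of all genes.

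Dscam1 was edited at 18.9%, 12.7% and 15.3% in the arsenite replicates, against 5.96%, 3.78% and 6.05% in the Schneider's replicates. Every arsenite sample was above every Schneider's sample. The difference was 10.4 points (SE 2.41, adjusted p = 0.0348), a 2.97-fold ratio of means. The call was lost when any 1 library other than arsenite replicate 2 was left out, with differences between 8.73 and 10.8 points, and with only positions of at least 10 reads (8.35 points, adjusted p = 0.0569). It was also lost after division by the sample mean (0.217 sample means, adjusted p = 0.412). Counted over the 3 replicates at each position, the edited share was higher in arsenite at 15 of the 18 Dscam1 positions and lower at 3, a count not made over all positions.

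The l(2)gl mRNA was edited at 11.9%, 18.5% and 14.1% in arsenite, against 8.28%, 7.49% and 8.35% in Schneider's. The groups did not overlap, but the difference of 6.77 points (SE 2.41) missed the threshold (adjusted p = 0.0864). It is the member with the most reads in S2 cells, 1890 in arsenite and 2031 in Schneider's. A fit over all 12 induced samples (adjusted p = 0.019), positions of at least 10 reads (adjusted p = 0.0305) and the quasi-binomial model (adjusted p = 0.00778) placed it past the threshold. Pooled reads (adjusted p = 0.055), the arcsine square root scale (adjusted p = 0.078) and call quality above 1000 (adjusted p = 0.0991) did not. Nor did the replicate block (adjusted p = 0.168), genes with at least 20 reads in each sample (adjusted p = 0.0375) or any replicate left out.

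For chic the frequencies were 4.21%, 7.19% and 8.08% in arsenite, against 1.2%, 2.83% and 2.07% in Schneider's, again without overlap. The mean was 3.19-fold higher, the largest ratio of the 5 members, but from the lowest level, and the difference of 4.46 points (SE 2.03) missed the threshold (adjusted p = 0.147). Rac1 had 10.2%, 5.01% and 7.13% in arsenite, against 4.81%, 3.33% and 4.65% in Schneider's. These groups too did not overlap, though the lowest arsenite value lay just above the highest Schneider's value, and the difference was 3.18 points (SE 2.19, adjusted p = 0.296). With Dscam1 and l(2)gl, 4 of the 5 measured members had all arsenite samples above all Schneider's samples, as had 51.4% of all tested genes, while 0.458% had all arsenite samples below.

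Cbl had 14.8%, 21.1% and 23.5% in arsenite, against 16.1%, 0% and 8.33% in Schneider's. The groups overlapped, and the Schneider's value of 0 rested on 38 reads. Its difference of 11.7 points was the largest of the members (SE 4.93, adjusted p = 0.128), and it was 7.59 points without Schneider's replicate 2 and 15.6 points without Schneider's replicate 1. Pooling the reads of the gene gave 15.6 points and passed the test (adjusted p = 0.0195), while positions of at least 10 reads gave 2.51 points (adjusted p = 0.61). The futsch mRNA is listed at 0 in every S2 sample, but it had 0 to 3 reads per sample and was not tested there.

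**Figure D1:**
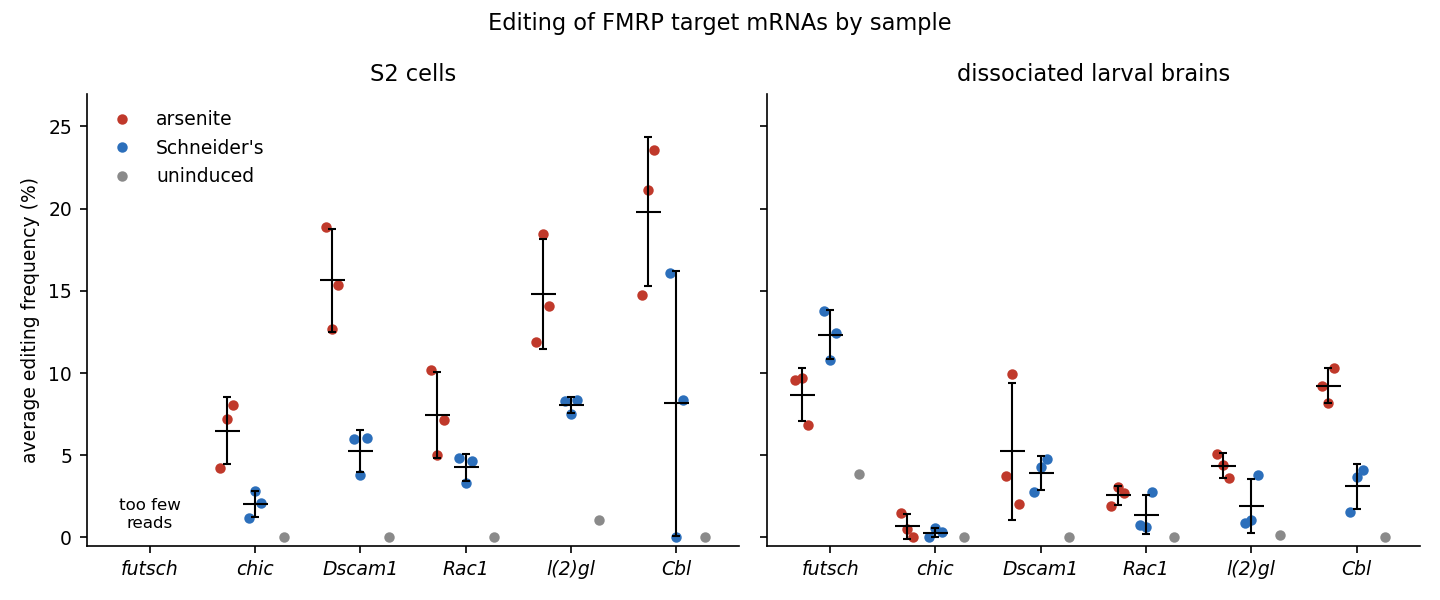
Average editing frequency (%) of the 6 mRNAs in S2 cells (left panel) and dissociated brains (right panel), with 1 point per sample and black bars for the mean ± SD of 3 replicates. In S2 cells the arsenite points of chic, Dscam1, Rac1 and l(2)gl lie above all Schneider's points, and in brains those of Cbl lie above and those of futsch below.

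In brains, none of the 6 mRNAs passed the limma test, against 6.06% of 4192 tested genes called higher and 0.0954% called lower. Cbl, the nearest, was 1 member at an unadjusted p under 0.05, against 18.8% of all tested genes, and the quasi-binomial model called that 1, against 12.2% of all genes. The median difference was 1.24 points over the 6 members and 4.87 points over all tested genes. Of the 6, Cbl had all arsenite samples above all Schneider's samples, as had 27.5% of tested genes, and futsch had all arsenite samples below, as had 0.382%.

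Cbl was edited at 9.2%, 8.17% and 10.3% in arsenite brains, against 1.56%, 3.7% and 4.09% in Schneider's brains, a 2.96-fold ratio of means. The difference was 6.1 points (SE 1.67, adjusted p = 0.171), just short of the threshold. Among genes with at least 20 reads in each sample the same values passed it (adjusted p = 0.0613). So did the quasi-binomial model (7.36 points, adjusted p = 0.03), pooled reads, positions of at least 10 reads and call quality above 1000. Cbl was not called on the arcsine square root scale (adjusted p = 0.219) or with the replicate block (adjusted p = 0.351). Nor was it in the fit over all 12 induced samples (adjusted p = 0.414), or with any replicate left out. After division by the sample mean the difference was 0.211 sample means (adjusted p = 0.711).

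The futsch mRNA went the other way, with 9.56%, 9.69% and 6.83% in arsenite brains, against 13.8%, 10.8% and 12.4% in Schneider's brains. Futsch was the most edited member in Schneider's brains and its arsenite mean was 0.705-fold of that level. The fall of 3.64 points missed the threshold (SE 1.81, adjusted p = 0.329). Over the 3 replicates, 21 of 221 futsch reads were edited in arsenite and 32 of 289 in Schneider's, and the share was higher in arsenite at 3 positions, lower at 8 and equal at 1. The difference was -1.43 points with pooled reads (adjusted p = 0.643) and -1.57 points in the quasi-binomial model (adjusted p = 0.679). It was -2.67 points with positions of at least 10 reads (adjusted p = 0.483). After division of each sample by its mean over all genes, futsch was 1.65 sample means lower in arsenite and passed the threshold (adjusted p = 0.206). By construction this division lowers any gene that does not rise with the mean of tested genes, which rose 2.2-fold in brains.

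The remaining members had low and overlapping frequencies in brains. For l(2)gl they were 5.09%, 4.41% and 3.61% in arsenite, against 0.87%, 1.04% and 3.81% in Schneider's (difference 2.46 points, SE 1.7, adjusted p = 0.437). Dscam1 had 3.71%, 9.94% and 2.04% in arsenite, against 2.77%, 4.26% and 4.78% in Schneider's, and its difference of 1.3 points (SE 2.57, adjusted p = 0.736) turned to -1.06 without arsenite replicate 2. Rac1 had 1.92%, 3.06% and 2.72% in arsenite, against 0.781%, 0.625% and 2.78% in Schneider's (1.17 points, SE 1.58, adjusted p = 0.621), and the difference was 4.13 points with pooled reads (adjusted p = 0.243) and 4.35 points in the quasi-binomial model (adjusted p = 0.145). The chic mRNA had 1.5%, 0.526% and 0% in arsenite, against 0%, 0.588% and 0.313% in Schneider's (0.376 points, SE 1.5, adjusted p = 0.874), from 7 edited of 1112 reads in arsenite and 3 of 1124 in Schneider's. After division by the sample mean the differences of all these 4 members were negative.

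**Figure D2:**
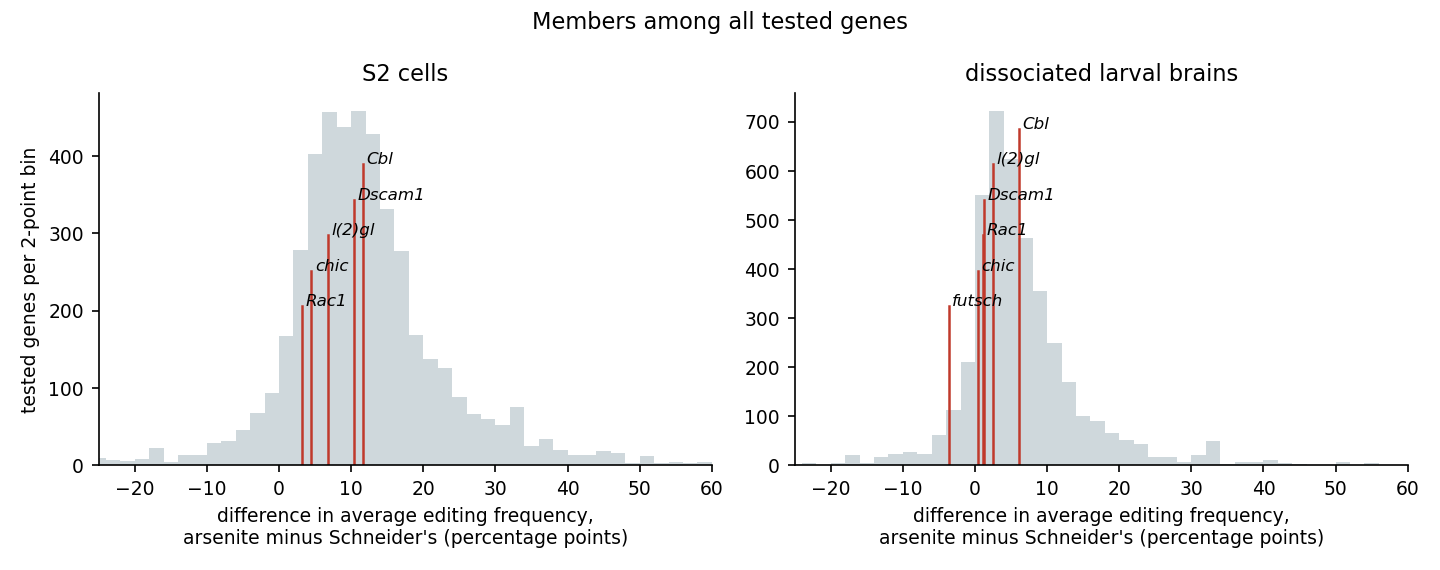
Number of tested genes per 2-point bin of the difference in average editing frequency, arsenite minus Schneider's (percentage points), in S2 cells (left) and brains (right), shown from -25 to 60 points. Red lines mark the members; in S2 cells they lie between 3.18 and 11.7 points, where the median of all tested genes is 10.8, and in brains between -3.64 and 6.1 points, where it is 4.87.

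The responses of brains and S2 cells were compared directly by an interaction term over the 12 induced samples. Promoter and induction (copper for 4 h in S2 cells, RU486 and 14 h of recovery in brains) also differed and cannot be told apart from tissue. None of the 5 mRNAs measured in both brains and S2 cells differed at p under 0.01, against 8.83% of 4963 genes with a larger effect in S2 cells and 0.826% with a larger effect in brains. At an unadjusted p under 0.05 there was 1 member, against 21.5% of all genes. This was Dscam1, whose arsenite effect in brains minus that in S2 cells was -9.07 points (SE 3.41, adjusted p = 0.162). Without brain arsenite replicate 2 this became -11.4 points and passed the threshold (adjusted p = 0.0833). Over all 12 fits with a replicate left out it lay between -11.4 and -7.43 points. Dscam1 was not called on the arcsine square root scale (adjusted p = 0.367) or after division by the sample mean (-0.604 sample means, adjusted p = 0.571). The other 4 differences lay between -2.01 points for Rac1 and -5.56 points for Cbl, and none passed. The Cbl value was -9.54 points without S2 Schneider's replicate 1 and -1.48 points without S2 Schneider's replicate 2. Those of l(2)gl and Cbl were positive after division by the sample mean, and that of Rac1 with pooled reads. The fits also returned a value for futsch, but its S2 side had no usable reads.

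At rest, too, tissue cannot be told apart from promoter and induction. In Schneider's, l(2)gl was less edited in brains than in S2 cells, at 1.91% ± 1.65 against 8.04% ± 0.476 (SD, n = 3 each). The difference was -6.13 points (SE 1.32, adjusted p = 0.0253), and 24% of 4464 tested genes were called lower in brains and 2.08% higher. After division by the sample mean it was no longer called (adjusted p = 0.583), nor without brain Schneider's replicate 1 or 2 or without S2 Schneider's replicate 1 or 3 (differences between -6.01 and -5.61 points). Rac1 (-2.87 points, adjusted p = 0.14), chic (-1.74 points, adjusted p = 0.263), Cbl (-5.03 points, adjusted p = 0.406) and Dscam1 (-1.33 points, adjusted p = 0.433, positive after division by the sample mean) were not called. The Cbl value was -1.05 points without S2 Schneider's replicate 1 and -9.1 points without S2 Schneider's replicate 2. For futsch the fit called brains higher, a value with no meaning for S2 cells since the mRNA had 5 reads there over the 3 Schneider's samples.

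The order of the members in Schneider's brains was futsch at 12.3%, Dscam1 at 3.93%, Cbl at 3.12%, l(2)gl at 1.91%, Rac1 at 1.4% and chic at 0.3%. Futsch stood apart from all others, and the ranges of each of the other neighbours in this order overlapped except that chic, at most 0.588%, lay just under the lowest Rac1 value of 0.625%. Positions were called on the reads of all samples together. The brain averages of some members, such as Rac1 and l(2)gl, thus include positions edited mainly in S2 cells. Futsch had almost no S2 reads, so this order depends in part on which positions were called. In Schneider's S2 cells the order was Cbl at 8.15%, l(2)gl at 8.04%, Dscam1 at 5.26%, Rac1 at 4.26% and chic at 2.03%. There Cbl overlapped with all other members, Dscam1 with Rac1, while l(2)gl and chic stood clear of their other neighbours.

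Position by position, the arsenite share in S2 cells was higher at 60, lower at 11 and equal at 5 of the 76 member positions with reads in both groups. In brains it was higher at 38, lower at 23 and equal at 23 of 84. Such directions were not counted over all positions, here or for single members. A position edited in arsenite alone could be called through those reads, which favours higher shares in arsenite. The test took positions where all 6 samples had 10 reads or more, 35 of the members in S2 cells and 12 in brains. In S2 cells 2 of the 35 were called higher and none lower, against 16.4% of 9117 tested positions called higher and 0.0439% lower. In brains 2 of the 12 were called higher, against 6.18% of 5018 higher and 0.139% lower. Neighbouring positions can lie on the same reads and are not independent.

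The l(2)gl position called in S2 cells, 2L:14029, is coding and had edited shares of 19.1%, 24% and 30% in arsenite, against 10.3%, 0% and 3.57% in Schneider's (difference 19.7 points, SE 4.1, adjusted p = 0.0318). The most edited position with many reads, 2L:15453, had 17 of 49 reads edited in arsenite and 20 of 59 in Schneider's, a difference of 0.177 points (SE 14.5, adjusted p = 0.997). In single S2 cells the same position had 63 of 171 reads edited in arsenite and 18 of 151 in Schneider's. Differences between positions were not tested. Of the 25 tested l(2)gl positions, 21 had a positive difference and 4 a negative one, and the matching share of all tested positions was not counted.

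The edited Rac1 reads of brains and of S2 cells lay mostly at different positions. In S2 cells the coding position 3L:1301966 had shares of 20%, 9.68% and 17.4% in arsenite, against 0%, 0% and 4.35% in Schneider's (14.2 points, SE 3.48, adjusted p = 0.0461), and 3L:1301952, 14 nt away, moved the same way (8.8 points, adjusted p = 0.116). At 3L:1301796 the shares were 7.14%, 0% and 0% in arsenite, against 19.2%, 13.3% and 5.56% in Schneider's (-10.3 points, adjusted p = 0.146), opposite to its neighbours. At 3L:1302132 no read was edited in S2 cells, 0 of 115 in arsenite and 0 of 112 in Schneider's. In brains that same position carried the change, with 7.69%, 12.2% and 10.9% in arsenite, against 3.13%, 2.5% and 0% in Schneider's (8.39 points, SE 2.11, adjusted p = 0.135). It gave all 13 edited Rac1 reads of arsenite brains. The positions 3L:1301966, 3L:1301952 and 3L:1301796 had 35, 42 and 14 reads in arsenite brains, against 121 at 3L:1302132. Positions were called on the reads of brains and S2 cells together, so a position edited in only one of these could enter through it alone. That shapes this contrast. The difference between brains and S2 cells at 3L:1302132 was not tested.

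In Cbl the brain difference was largest at 3 coding positions. At 3L:8426762 the shares were 20.7%, 15.6% and 23.1% in arsenite, against 7.41%, 0% and 0% in Schneider's (17.3 points, SE 3.1, adjusted p = 0.0734). At 3L:8425390 the pooled counts were 12 of 58 reads in arsenite and 2 of 48 in Schneider's (adjusted p = 0.18), and at 3L:8425664, which had too few reads for the test, 15 of 59 and 3 of 42. The same 3 positions had 5 of 14, 9 of 23 and 7 of 21 edited reads in arsenite S2 cells, against 0 of 21, 4 of 29 and 3 of 19 in Schneider's S2 cells. In chic, the positions 2L:5976736 and 2L:5976739 had 13 edited reads each in arsenite S2 cells, of 282 and 275, against none of 269 and 253 in Schneider's. They lie 3 nt apart, so that a read can cover both, and neither passed the test (adjusted p = 0.258 and adjusted p = 0.252).

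**Figure D3:**
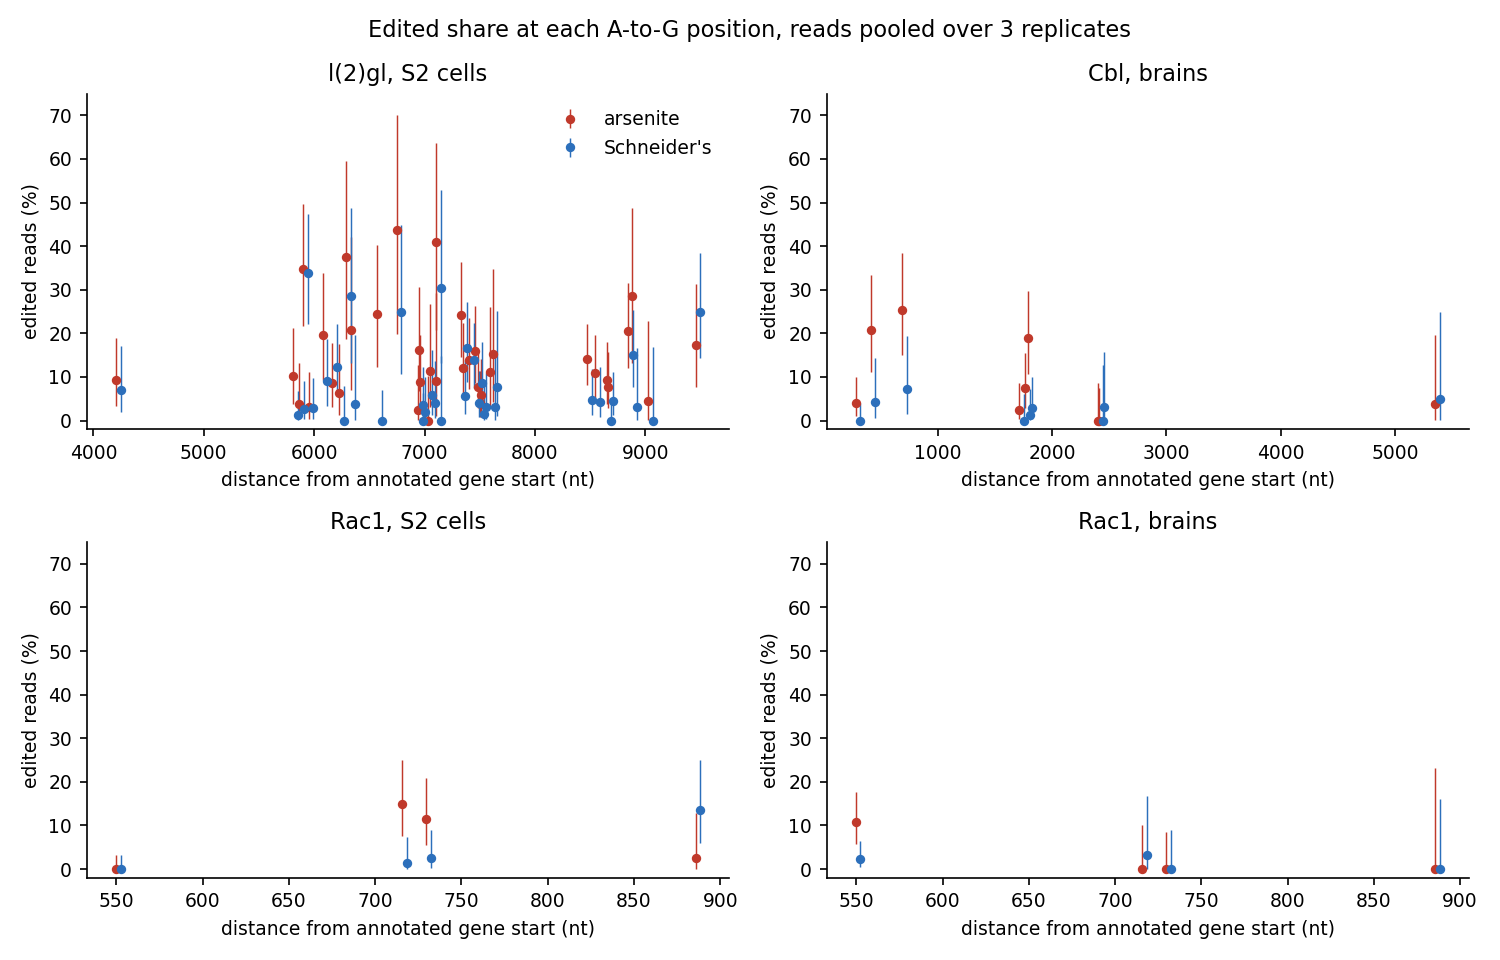
Edited reads (%) at each A-to-G position, pooled over 3 replicates with 95% Clopper-Pearson intervals, against the distance from the annotated gene start (nt), with the arsenite points drawn slightly to the left. In l(2)gl both groups are edited along most of the coding part; in Rac1 the position at 551 nt is edited in brains (13 of 121 reads in arsenite, 3 of 134 in Schneider's) and in no S2 read.

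Base changes other than A-to-G were pooled over the 6 genes. Over 105 such positions, 7.48% of reads carried the change in arsenite S2 cells and 7.78% in Schneider's S2 cells, while at the 84 A-to-G positions it was 11.2% in arsenite and 5.41% in Schneider's. In brains the other changes had 9.08% in arsenite and 8.34% in Schneider's, and A-to-G changes 4.43% in arsenite and 2.24% in Schneider's. Gene by gene the other changes varied more, as for futsch in brains with 12.2% in arsenite and 7.9% in Schneider's, and for l(2)gl in brains with 5.04% in arsenite and 7.51% in Schneider's. These shares pool the replicates and were not tested.

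Single S2 cells, summed per plate, had higher values in arsenite on both plates for the 5 mRNAs that could be measured, though after division by the sample mean chic, Dscam1, Rac1 and l(2)gl were lower. The share of all genes that were higher on both plates was not counted, and the median difference over all tested genes was 8.85 points. None of the members was called with limma, against 10% of 5994 genes called higher and 0.1% lower, and 1 was under an unadjusted p of 0.05, against 37.4% of all genes. With 2 plates per condition, Dscam1 came nearest, at 11.3% and 10.5% in arsenite, against 5.51% and 2.86% in Schneider's (6.69 points, SE 1.95, adjusted p = 0.119). With positions of at least 10 reads it passed (7.83 points, adjusted p = 0.0481). The values of l(2)gl were 11.7% and 10.2% in arsenite, against 6.05% and 5.99% in Schneider's (4.91 points, adjusted p = 0.148), and those of Cbl 23% and 13.3% in arsenite, against 3.08% and 7.58% in Schneider's (12.8 points, adjusted p = 0.154). The Cbl difference was 6.47 points with positions of at least 10 reads, 7.95 points without arsenite plate 1 and 17.7 points without arsenite plate 2. For chic they were 6.27% and 8.4% in arsenite, against 4.74% and 3.15% in Schneider's, and for Rac1 5.15% and 4.09% in arsenite, against 2.45% and 1.59% in Schneider's. Futsch had 14 reads in arsenite wells and 12 in Schneider's wells and is not described further.

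In the single cells l(2)gl had 6218 reads in arsenite wells and 5422 in Schneider's wells. Edited Dscam1 reads came from 112 of the 185 arsenite wells that had Dscam1 reads, and from 66 of 190 such Schneider's wells, at 6526 and 5649 Dscam1 reads in all. Of the bulk positions, 27 of 36 in l(2)gl, 14 of 18 in Dscam1, 7 of 9 in Cbl, 3 of 4 in Rac1 and 2 of 5 in chic were also in the single-cell table, where 69.4% of all bulk positions were. None of the 12 futsch positions was.

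**Figure D4:**
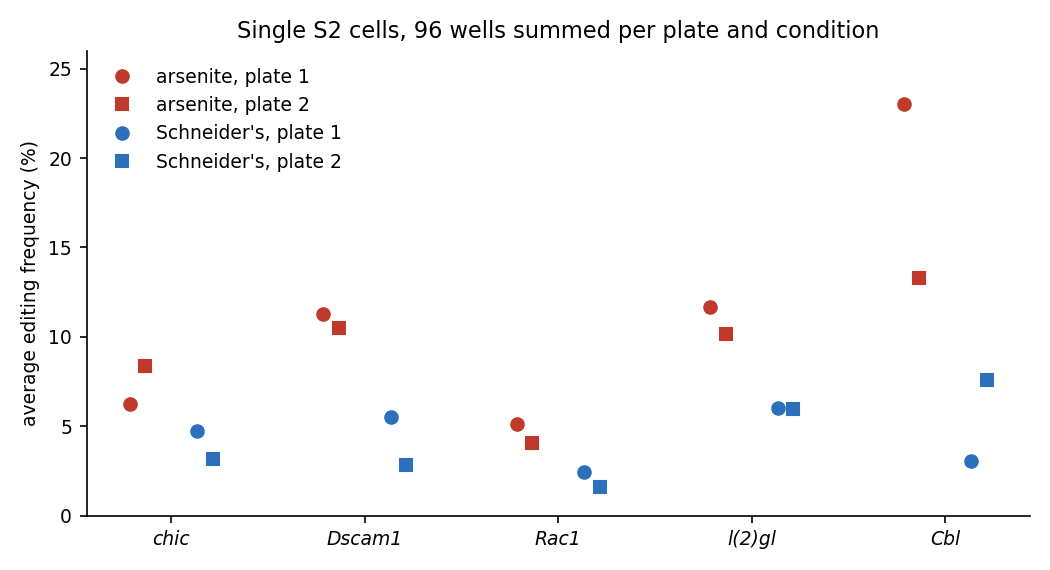
Average editing frequency (%) of 5 of the mRNAs in single S2 cells, with the reads of 96 wells summed per plate and condition (circles, plate 1; squares, plate 2). For Dscam1 the values are 11.3% and 10.5% in arsenite and 5.51% and 2.86% in Schneider's.

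Genes that work with the members were described through 7 lists, whose median differences can be read against 10.8 points over all tested genes in S2 cells and 4.87 points in brains. The list counts are limma calls at an unadjusted p under 0.01 unless another rule is named, to be read against the 23.6% of all tested genes called higher in S2 cells and the 6.06% in brains. For the other rules the shares of all genes are, at an unadjusted p under 0.05, 45.1% in S2 cells and 18.8% in brains, and, in the quasi-binomial model, 30.8% in S2 cells and 12.2% in brains. Of the Rac and actin regulators, 26 of 28 were tested in S2 cells, and 6 rose with none falling (median difference 8.2 points). The largest rises among genes with at least 3 positions were in Arpc2, a subunit of the actin-nucleating Arp2/3 complex, with 24.3% ± 3.91 in arsenite and 9.62% ± 2.57 in Schneider's (SD, n = 3 each, adjusted p = 0.0266), and in Hem, a subunit of the SCAR complex through which Rac acts on actin, with 22.8% ± 1.52 in arsenite and 10.1% ± 1.2 in Schneider's (SD, n = 3 each, adjusted p = 0.0215). In brains none of 24 passed limma, 5 were under an unadjusted p of 0.05 and the quasi-binomial model called 3 (median 3.36 points). For Hem the arsenite effect in brains minus that in S2 cells was -10.5 points and passed the threshold (adjusted p = 0.0514).

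Of the genes for microtubule-associated proteins, the class to which Futsch belongs, 3 of 13 tested rose in S2 cells (median 7.57 points) and 2 of 14 in brains (median 4.09 points), and none fell. The asp mRNA, for a spindle pole protein, rose in both, with 33.2% ± 4.41 in arsenite and 15.2% ± 2.39 in Schneider's in S2 cells, and with 17.8% ± 2.33 in arsenite and 6.27% ± 1.35 in Schneider's in brains (SD, n = 3 each, adjusted p = 0.0227 and adjusted p = 0.112). Patronin, which protects microtubule minus ends, rose in brains by 9.76 points (adjusted p = 0.145). Neither brain gene had an adjusted p under 0.05.

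Of the cell polarity genes, among which l(2)gl acts, 3 of 13 rose in S2 cells (median 9.33 points) and 1 of 16 in brains (median 3.54 points), and none fell. Patj, a scaffold protein of the apical Crumbs complex, had 27.5% ± 5.71 in arsenite and 4.54% ± 3.79 in Schneider's in S2 cells (SD, n = 3 each, adjusted p = 0.0227), and its effect in brains minus that in S2 cells was -19.7 points (adjusted p = 0.0497). The brain gene was mira, for the adaptor protein Miranda of dividing neuroblasts, with 9.9% ± 0.733 in arsenite and 2.69% ± 0.985 in Schneider's (SD, n = 3 each, adjusted p = 0.142). Of the Egfr and Cbl signalling genes, none fell, and the medians were 12.4 points in S2 cells and 2.92 points in brains. In S2 cells 5 of 13 rose, led by Pvr, a receptor tyrosine kinase, by 19 points (adjusted p = 0.0231), and dos, an adaptor protein, by 18.4 points (adjusted p = 0.0241), and 1 of 14 in brains, the kinase gene Src42A, by 10.2 points (adjusted p = 0.119).

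Of the guidance and adhesion genes listed with Dscam1, none of 13 passed limma in S2 cells (median 7.38 points) and none of 16 in brains (median 5.49 points). The quasi-binomial model called 3 and 5 of them, and at an unadjusted p under 0.05 limma had 0 in S2 cells and 6 in brains. Of the genes for proteins that work with FMR1, 2 of 11 rose in S2 cells (median 8.63 points), the Ataxin-2 gene Atx2 by 17.2 points (adjusted p = 0.0337) and tral by 11.8 points (adjusted p = 0.0342), and none in brains (median 3.59 points), where 1 was under an unadjusted p of 0.05 and the quasi-binomial model called 5. Of 2 further reported FMR1 targets, 1 was tested, CaMKII, with 30.1% ± 1.37 in arsenite and 11.2% ± 3.48 in Schneider's in S2 cells (SD, n = 3 each, adjusted p = 0.0186). In brains its difference was 2.69 points and missed the threshold, also at an unadjusted p under 0.05 and in the quasi-binomial model.

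The genes whose frequencies were most like a member's over the 12 induced samples were named by Pearson's r, as a description over samples that fall into 4 groups. They were spoon, Usp7 and ATPCL for l(2)gl (0.98, 0.97 and 0.97), l(1)G0320, CG9947 and jim for chic (0.98, 0.98 and 0.97), CG34449, MED1 and ana3 for Rac1 (0.97, 0.96 and 0.96), CG7185, dmpd and CG7029 for Cbl (0.95, 0.94 and 0.94) and Gyf, Cp1 and l(1)G0193 for Dscam1 (0.94 for each). For futsch the nearest was the long noncoding RNA gene Hsromega (0.96), followed at a distance by Act5C (0.62) and lap (0.57), and here the S2 values of futsch are listed zeros with almost no reads behind them.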

How the data were processed

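RNA editing was measured by VASA-seq. The authors trimmed reads (cutadapt 3.2), removed ribosomal RNA (BWA 0.7.17-r1188), mapped to BDGP6 with Ensembl 95 (STARsolo 2.7.7a), kept uniquely mapped reads, collapsed molecular identifiers (UMI-tools 1.1.1) and called variants (GATK 4.1.9.0). Unique mapping leaves out reads that match 2 genes, such as Rac1 and Rac2. The authors deposited the average editing frequency per gene as a fraction, with no other normalization, and variant tables with reads per base. Tables of their own comparisons were not used, nor were 20 library columns whose names could not be matched to a sample. Of the A-to-G calls, those of quality above 250 whose allele frequency was below 0.95 entered. From these, the deposited frequencies were recomputed within 1e-06 for 4998 of 5003 genes. Coordinates and classes came from Ensembl 115. No genome sequence was used here.

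Group differences were fitted with limma 3.58.1 under R 4.3.3 (two-sided, untransformed, no covariate), on genes above 0 in at least 1 sample of a comparison. Calls are at p under 0.01, as in the methods of the study, and adjusted p are by Benjamini-Hochberg over all genes or positions tested. Nothing in the labels ties replicates to separate cultures, so for S2 cells p-values measure only the spread between these samples. Single-cell reads were summed per plate and condition. Intervals are 95% Clopper-Pearson, and a count of 0 allows 3 reads. The tests were tried on simulated reads, with no outcome given here. Named list genes were the called ones with the largest difference and at least 3 positions, at most 2 per list and comparison. Members and lists were chosen with earlier results of these data known. The alternatives were pooled reads, an arcsine square root scale, minimum reads, call quality above 1000, other fits, division by the sample mean, adjusted p, a replicate block and each replicate left out, the last of which was added after seeing the data for all but the bulk arsenite comparisons of genes.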

Additional observations from a re-analysis of the deposited data

Results flagged for a closer look

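Single S2 cells kept in Krebs Ringer buffer, which no comparison above uses, had higher frequencies than those in Schneider's on both plates for 4 of the members, chic, Dscam1, Rac1 and l(2)gl. For Dscam1 and l(2)gl both Krebs Ringer values also lay above both Schneider's values, though the lower Krebs Ringer value and the higher Schneider's value of Dscam1 both round to 5.51%. Dscam1 averaged 5.54% ± 0.0475 in Krebs Ringer and 4.19% ± 1.87 in Schneider's (SD, n = 2 plates each), with pooled reads of 238 edited of 4913 in Krebs Ringer and 140 of 5649 in Schneider's. For l(2)gl it was 7.23% ± 0.556 in Krebs Ringer and 6.02% ± 0.0452 in Schneider's, with 321 of 4991 reads in Krebs Ringer and 264 of 5422 in Schneider's. These differences were not tested, and how many of all genes were higher in Krebs Ringer in the same way was not counted. With 3 samples or fewer per group, no sample was examined as an outlier, and no member's arsenite effect differed between brains and S2 cells at p under 0.01.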

How the results depend on the processing

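In S2 cells limma called 1 member, with 1083 of 4589 tested genes called higher. It called 2 with pooled reads (1273 of 4589 genes higher) or call quality above 1000 (1003 of 4381). All 12 induced samples in 1 fit also gave 2 (1615 of 4589), and the quasi-binomial model 4 (1405 of 4567). Division by the sample mean gave 0 (165 higher and 148 lower of 4589), and leaving out a replicate between 0 and 1 (520 to 985 higher). In brains limma called 0, with 254 of 4192 genes called higher. It called 1 with pooled reads (283 of 4192 higher), positions of at least 10 reads (221 of 2497) or call quality above 1000 (234 of 4050). The quasi-binomial model (509 of 4173) and genes with at least 20 reads (286 of 2134) also gave 1. So did division by the sample mean (futsch, lower, with 57 of 4192 genes lower), and any replicate left out gave 0. In single cells limma called 0, with 600 of 5994 genes called higher, but 1 with positions of at least 10 reads (927 of 4571). For brains minus S2 cells the interaction called 0, but 1 after division by the sample mean (futsch, whose S2 side has no usable reads), and between 0 and 1 with a replicate left out. At rest it called 2, futsch included, but 1 after division by the sample mean, and between 1 and 2 with a replicate left out. Member positions called in S2 cells were 2, but 4 with at least 5 reads, and between 0 and 3 with a replicate left out. In brains they were 2, but 0 at an adjusted p under 0.05, 1 with at least 20 reads, and between 1 and 2 with a replicate left out. For the interaction, at rest and for positions, the counts over all genes or positions at these other settings are not given here.

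The replicate numbers gave no clear sign of pairing: deviations of same-numbered samples correlated at 0.055, 0.01 and 0.0015 in S2 cells and at -0.01, 0.012 and -0.022 in brains. Over all pairs the correlations lay between -0.0363 and 0.055 in S2 cells and between -0.0522 and 0.0617 in brains. They cannot exclude a pairing, since the deviations also carry counting error. With the replicate block, 0 members were called in S2 cells (Dscam1 adjusted p = 0.0922), 0 in brains, 0 in single cells with plate as the block and 1 at rest, and over all genes called higher in S2 cells the count was 497 in place of 1083.

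Division by the sample mean turned the difference of Rac1 (-0.0478 sample means) and l(2)gl (-0.0576) in S2 cells, of chic (-0.00494), Dscam1 (-0.312), Rac1 (-0.0589) and l(2)gl (-0.0169) in brains, of chic (-0.203), Dscam1 (-0.0183), Rac1 (-0.0532) and l(2)gl (-0.351) in single cells, of l(2)gl (0.0423) and Cbl (0.0827) in the interaction, and of Dscam1 (0.39) at rest. By construction it removes a rise shared by all genes, here 2.01-fold in S2 cells and 2.2-fold in brains on the mean of tested genes, and the calls higher and lower in S2 cells became 165 and 148, against 1083 and 4 before. Pooled reads turned Rac1 in the interaction (0.501 points). Leaving out a replicate turned chic (between -0.0371 and 0.715 points) and Dscam1 (between -1.06 and 2.89 points) in brains, and leaving out a plate turned futsch in single cells (5.56 and 29.2 points). Futsch could not be measured in S2 cells, and Cbl had 38 to 75 reads per Schneider's S2 sample.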
